A study of Mus musculus with 3 samples.

Results

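The cells described here are noncycling lower outer root sheath cells of mouse dorsal skin, taken from single-cell RNA sequencing of 3 libraries. They were picked by raw UMI (unique molecular identifier) counts, 1 UMI standing for 1 captured RNA molecule. A cell barcode was a member if it passed the filters (500 or more genes, 15% or less of its UMIs mitochondrial) and had at least 10 UMIs of the basal keratins Krt5 and Krt14 together, and at least 2 UMIs of Gnmt, Scrg1 and Stbd1 together. Members also had fewer than 5 UMIs of the proliferation genes Mki67 and Top2a, fewer than 5 of Krt15 and of Krt75, fewer than 2 of Krt79, fewer than 20 of Krt1 and Krt10, fewer than 5 of Krt71 and Krt73, no Ptprc and at most 1 Col1a2. The rule took in 1215 of 51191 barcodes: 484 of 14529 in the library labelled Cont, 241 of 17675 in CIA and 490 of 18987 in CIA+VFX. The values of these 16 genes chose the members and are given below as description only.

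The outer root sheath is the outermost epithelial layer of the hair follicle and is continuous with the epidermis above and with the bulge, where follicle stem cells reside. Its lower portion encloses the growing hair bulb, exists only while the follicle is in its growth phase, and is known for its glycogen-rich cytoplasm. Stbd1 is a glycogen-binding protein, Gnmt is a glycine methyltransferase of the methionine cycle, Adamts20 is a secreted metalloprotease known from its part in pigment cell development in skin, and Cxcl14 is a chemokine made by epithelia. Chemotherapy given during the growth phase injures the rapidly dividing hair matrix, and hair loss follows.

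The animals were 9-week-old female C57BL/6 mice whose dorsal skin had been stripped of hair with wax. Cont mice received vehicle, CIA mice were a model of chemotherapy-induced alopecia, and CIA+VFX mice were the same model given venlafaxine (VFX), an antidepressant that inhibits serotonin and noradrenaline reuptake. The drug that caused the hair loss, the doses and the day of sampling are not in the labels. Skin of an unstated number of mice was pooled into 1 library per group, so n = 1 in each group, every interval below covers counting error only, and no difference has a replicate check. Age and strain are shared, and the pool, the dissociation and the library cannot be told apart from the treatment.

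Depth differed between the libraries. A member had a median of 13560 UMIs and 3759.5 genes in Cont, 8743 UMIs and 2992 genes in CIA, and 8766 UMIs and 2948 genes in CIA+VFX. The members summed to 8579470, 2597260 and 5300772 UMIs. The median share of mitochondrial UMIs was 2.56%, 2.05% and 2.68%, and ribosomal protein genes took 14.2%, 14.6% and 14.2% of the UMIs. Between 152 and 187 barcode sequences of each library also occurred in another library, among them 5, 1 and 2 of the members, and no member shared its barcode with a member of another library.

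The label was checked on genes that the rule did not use. Both remaining markers fixed for the lower outer root sheath stood above the other Krt5/Krt14 barcodes of the same library, that is, barcodes with at least 10 Krt5 and Krt14 UMIs, no Ptprc and at most 1 Col1a2 that were not members. Adamts20 was at 137, 124 and 124 CPM (UMIs of the gene summed over the class and scaled to the total of that class, counts-per-million) in the Cont, CIA and CIA+VFX members, against 17.1, 29.3 and 24.0 CPM in the other Krt5/Krt14 barcodes. Cxcl14 was at 6136, 6332 and 4184 CPM against 1616, 1765 and 1269 CPM. Cd34, a surface protein of bulge and outer root sheath cells, was at 59.8, 61.6 and 57.9 CPM against 11.7, 18.8 and 15.3. Lgr5, a Wnt co-receptor of follicle stem cells and of the lower outer root sheath, was at 196, 156 and 209 CPM against 56.8, 79.0 and 67.9. The follicle transcription factors Sox9 (612, 668 and 744 CPM) and Barx2 (334, 425 and 435 CPM) and the interleukin receptor Il11ra1 (328, 357 and 360 CPM) were likewise above the other Krt5/Krt14 barcodes in all 3 libraries. Sox9 was not particular to the members. It was at 119, 882 and 660 CPM in like barcodes with at least 5 Krt75 UMIs and fewer than 2 of Gnmt, Scrg1 and Stbd1. Barcodes that met the rule except for at least 5 Mki67 and Top2a UMIs had 373, 593 and 854 CPM. These classes were cut from the same counts, so the ratios are a description and not a test.

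**Figure D1:**
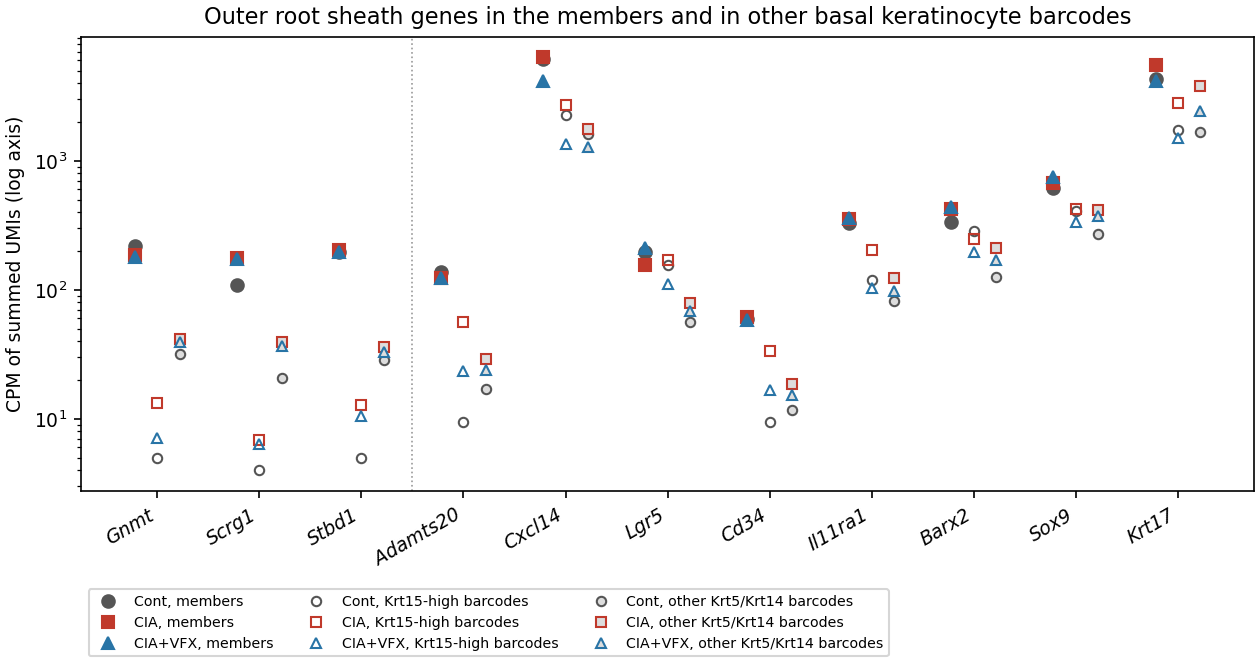
CPM of summed UMIs on a log axis for 11 genes (x axis) in the members (filled symbols), in the Krt15-high barcodes (open) and in the other Krt5/Krt14 barcodes (grey fill). Circles are Cont, squares CIA and triangles CIA+VFX, and the 3 genes left of the dotted line were used by the rule. Among the genes right of the line, Adamts20 and Cxcl14 of the members sit above both other classes in every library, while Lgr5 of the CIA members (156 CPM) is below the Krt15-high barcodes of CIA (171 CPM).

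The members were also set beside the Krt15-high barcodes. These met the same limits but had at least 5 UMIs of Krt15, a bulge and basal keratin, and fewer than 2 of Gnmt, Scrg1 and Stbd1. There were 143, 191 and 235 of them in Cont, CIA and CIA+VFX, with median depths of 10804, 9614 and 10464 UMIs. Adamts20 was at 9.47, 56.6 and 23.5 CPM in the Krt15-high barcodes, and Cxcl14 at 2279, 2706 and 1361 CPM. Barcodes of at least 3000 UMIs were also thinned to 3000 UMIs. Adamts20 was then seen in 27.4%, 28.9% and 29.2% of members and in 2.94%, 11.3% and 8.37% of Krt15-high barcodes. Without thinning it was seen in 66.1%, 49.4% and 50% of members. In immune barcodes (at least 2 Ptprc UMIs), which should lack the gene, the thinned shares were 0.290%, 0.372% and 0.603%, at median depths of 5892, 5216 and 5257 UMIs before thinning. Cycling barcodes that met every other limit were few, 20, 34 and 60.

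Among 2907 genes of sufficient level, the 20 with the highest smallest ratio of members to other Krt5/Krt14 barcodes across the libraries included Adamts20 at rank 8. Atp12a, the nongastric proton-potassium ATPase, led with 62.7, 123 and 84.5 CPM in the members against 6.95, 17.4 and 14.0 CPM. The next places went to genes best known from excitable cells: Dlg2, a synaptic scaffold (634, 443 and 638 CPM), Kcnb2, a voltage-gated potassium channel subunit (443, 211 and 379 CPM), and Cacnb4, a calcium channel subunit (234, 115 and 176 CPM). Gabre, a GABA receptor subunit, and Rims1, a presynaptic protein, were also among the 20. Secreted and matrix proteins formed another share of the 20, with Smoc1, Fndc1, Adamts3, Pappa, Pdgfd, Col12a1 and the Wnt inhibitor Sfrp1 (837, 1127 and 896 CPM). The remaining 7 were Trf (transferrin), Plcl1, Cmah, Sorbs2, Heg1 and Dhrs9, a retinol dehydrogenase at 742, 384 and 546 CPM, beside Adamts20 itself.

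The 3 marker genes of the rule were not all seen in every member. Gnmt was detected in 75.8%, 64.3% and 62.2% of members, Scrg1 in 60.5%, 66.8% and 66.7%, and Stbd1 in 83.7%, 75.9% and 77.1%. All 3 were seen in 39.3% (exact 95% binomial interval 34.9 to 43.8) of Cont, 29.9% (24.2 to 36.1) of CIA and 33.3% (29.1 to 37.6) of CIA+VFX members. The markers' median sum was 7, 5 and 5 UMIs, against the limit of 2. At the edge of that limit, Adamts20 was at 104, 91.4 and 104 CPM in members with a sum of exactly 2, and at 40.7, 35.3 and 28.9 CPM in the 85, 82 and 141 barcodes with a sum of exactly 1, which just missed it. Cxcl14 was at 5019, 4451 and 3219 CPM inside the edge and at 2904, 2836 and 2201 CPM outside it. The level of both genes thus went down in steps across the limit and did not end at it.

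RNA of other cell types was present at low levels. Of 8 dermal papilla markers the members' summed level was 7.23, 8.09 and 9.43 CPM, with Alx4 at 0 in each library. T cell markers (6 genes) summed to 2.45, 1.93 and 1.13 CPM with Ptprc at 0 by the rule, and neutrophil markers (5 genes) to 2.21, 9.24 and 4.53 CPM. Macrophage and dendritic cell markers (8 genes) summed to 123, 78.2 and 70.7 CPM, against 21285, 23731 and 18556 CPM in the immune barcodes. The 8 fibroblast markers summed to 597, 700 and 649 CPM, most of it Sparc, a matrix glycoprotein that keratinocytes also make (530, 590 and 553 CPM). The 6 pericyte and smooth muscle markers went from 85.7 CPM in Cont to 200 in CIA and 156 in CIA+VFX; their contractile genes Tagln (11.0, 106 and 47.4 CPM) and Acta2 (3.61, 41.6 and 34.7 CPM) held most of the gap, while Rgs5, the pericyte marker of the list, was at 8.28, 3.08 and 12.3 CPM. The 10 suprabasal epidermis markers summed to 337, 549 and 500 CPM with Flg at 0 in Cont and CIA, and the 6 melanocyte markers to 50.2, 17.7 and 49.8 CPM. The part of these RNAs in the results below was not tested.

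The members were a smaller share of the CIA library than of the others. They were 3.83% (exact 95% binomial interval 3.50 to 4.18) of the barcodes past the filters on genes and mitochondrial UMIs in Cont, 1.45% (1.28 to 1.65) in CIA and 2.95% (2.69 to 3.21) in CIA+VFX. The share in CIA was 0.380 times that in Cont (0.324 to 0.444), and the share in CIA+VFX was 2.03 times that in CIA (1.73 to 2.37) and 0.769 times that in Cont (0.677 to 0.874). Among Krt5/Krt14 barcodes, members were 26.80%, 12.33% and 16.04%, so that CIA stood at 0.460 times Cont and CIA+VFX at 1.30 times CIA.

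The shares moved under equal depth. The rule counts raw UMIs, and members of Cont were deeper. Kept barcodes of at least 4000 UMIs were therefore also thinned to 4000 UMIs before the rule was applied. Shallower barcodes were left out, so the denominators fell from 12638, 16573 and 16635 to 9192, 10723 and 10798 barcodes. The shares of these were 2.11% (1.83 to 2.43), 1.80% (1.56 to 2.07) and 3.13% (2.81 to 3.48). CIA was at 0.853 times Cont with an interval that spans equality (0.695 to 1.05), and CIA+VFX went from below Cont to above it (1.48 times, 1.24 to 1.78). The limit on Krt15 also weighed unequally, since by itself it left out 189, 329 and 364 barcodes that met all else. Without it there were 673, 570 and 854 members, 5.33%, 3.44% and 5.13% of the barcodes, with CIA at 0.646 times Cont, CIA+VFX at 1.49 times CIA and CIA+VFX at 0.964 times Cont. A lower share in CIA than in CIA+VFX was seen in each of these counts. A share also depends on how many other cells each suspension held.

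**Figure D2:**
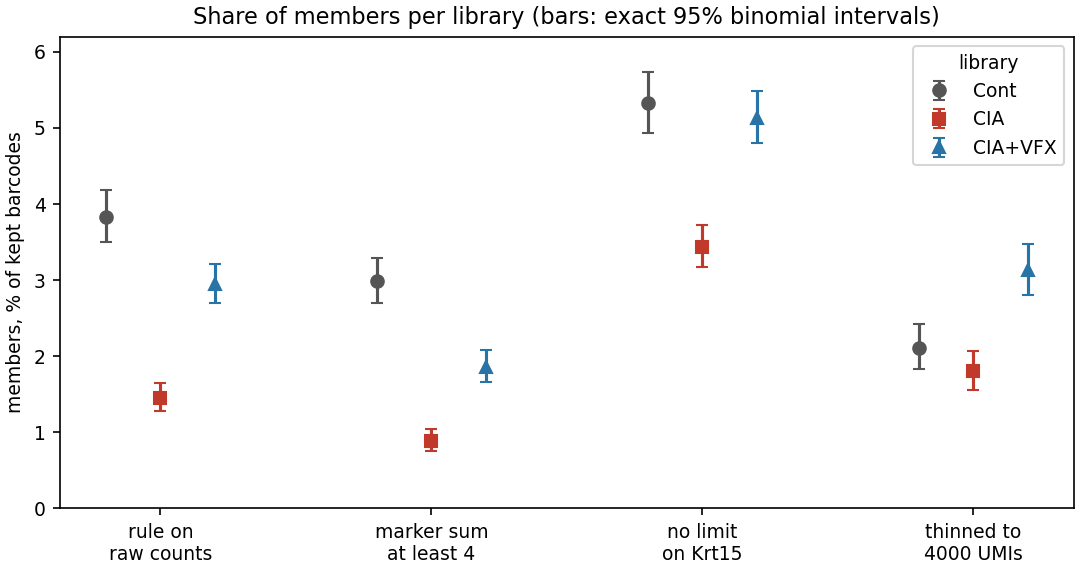
Members as a percentage of the barcodes past the filters (y axis) in Cont (circles), CIA (squares) and CIA+VFX (triangles) under the rule and 3 alternatives, with exact 95% binomial intervals as bars. CIA is the lowest point in each, but after thinning to 4000 UMIs its interval (1.56 to 2.07) overlaps that of Cont (1.83 to 2.43). The thinned points count only barcodes of at least 4000 UMIs.

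The members were not uniform. Clustered without the genes of the rule, they fell into 5 groups (Leiden method, resolution 0.5; a finer resolution of 1 gave 8), which are described by number and leading genes. Group 1 (487 members) was led by Add2, Cxcl1, Tgfbi and Cxcl2, with the prostaglandin synthase Ptgs2, the hyaluronan synthase Has2 and the cornified envelope protein Ivl among its first 12 genes. It was 56.4% of Cont, 31.1% of CIA and 28.4% of CIA+VFX members, and its median depth of 13814 UMIs was the highest of the 4 larger groups. Group 2 (396 members) was led by the heat shock genes Hsph1, Hspa1a and Hspa1b and the stress gene Ddit4, and was 26.0%, 36.1% and 37.3% of the members. Heat shock genes are also known to respond to dissociation; the part of handling in group 2 was not tested.

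Groups 3 to 5 were smaller. Group 3 (221 members; 11.0%, 22.8% and 23.1%) was led by Pinlyp, Grik3, Tmprss11f and Rhov, and its level of Adamts20 was 16.8 CPM and of Gnmt 54.0 CPM, against 120 and 207 CPM in group 1. Its Stbd1 level, 241 CPM, was about that of group 2 (240 CPM). Pinlyp was at 6.83, 38.1 and 545 CPM in the Cont, CIA and CIA+VFX members of group 3. A single CIA+VFX member held most of the Pinlyp UMIs. The level of Adamts20 in group 3 was thus as low as in the other Krt5/Krt14 barcodes, and the label does not hold well for it. Group 4 (90 members; 5.79%, 7.88% and 8.78%) was led by Ppm1n, Pde4c and Muc13 and had the highest Adamts20 (279 CPM), Gnmt (364 CPM) and Scrg1 (291 CPM) but Cxcl14 at only 1375 CPM. Group 5 (21 members) was led by Dcn, Krt28, Cux1 and Krt25, the first a fibroblast gene and the keratins from the inner root sheath. It held no Adamts20 UMI, and the data go against its label. Without groups 3 and 5, 427, 181 and 365 members remained.

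**Figure D3:**
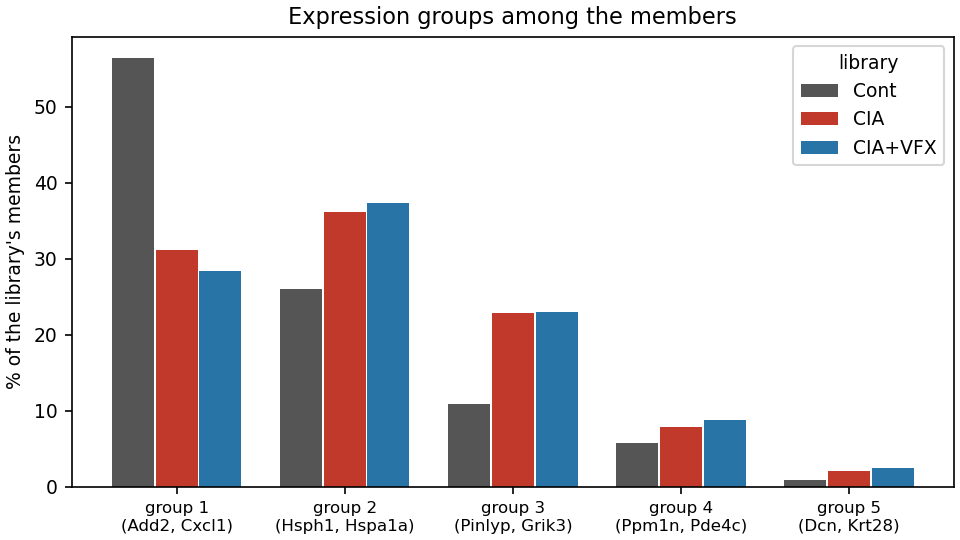
Percentage of each library's members (y axis) in 5 expression groups, named by number and their first 2 leading genes (grey bars Cont, red CIA, blue CIA+VFX). Group 1 holds 56.4% of the Cont members and 31.1% and 28.4% of the CIA and CIA+VFX members; groups 2 to 5 take larger shares of the CIA and CIA+VFX members than of the Cont members.

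In the CIA members, genes of antigen presentation, glycolysis and sterol synthesis stood higher than in the Cont members, and a set of ion transport and signalling genes stood lower. A gene was counted as measured with at least 50 UMIs in both libraries together, and as called higher or lower if its CPM differed by at least 1.5-fold. Of 9934 measured genes, 1262 (12.7%) were called higher in CIA and 631 (6.35%) lower. Each list count of CIA against Cont below is to be read beside these shares. The median gene was 0.09 higher on the log2 scale. This balance rests on the scaling: with edgeR's TMM factors the median gene moved by -0.15 to -0.06, and the calls became 763 higher and 1042 lower, so that 42.3% of the called genes were higher in place of 66.7%. Each log2 ratio of CIA to Cont below would be lower by that 0.15 under TMM scaling, so a list median between 0 and 0.15 has the other sign there.

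Interferon-induced and MHC class I genes, the latter displaying peptides to T cells, were mostly higher in CIA. Of 27 measured genes, 21 were called higher in CIA and 1 lower (Usp18), and the list's median log2 ratio was 1.06. B2m, the light chain of MHC class I, was at 285 CPM in Cont, 598 in CIA and 496 in CIA+VFX, 2.10-fold higher in CIA than in Cont (exact 95% interval 1.97 to 2.24). The heavy chains H2-D1 (207, 406 and 312 CPM) and H2-K1 (142, 266 and 243 CPM) were 1.96-fold and 1.88-fold higher in CIA. All 3 were in most members: B2m was seen in 88.0%, 89.2% and 85.1% of them, and in 50.6%, 64.9% and 60.3% after thinning to 3000 UMIs. Tap2, a peptide transporter of this pathway, was at 15.4, 33.5 and 34.5 CPM and Nlrc5, its transcriptional regulator, at 10.5, 37.3 and 37.9 CPM.

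Isg15, a ubiquitin-like protein induced by interferon, was at 12.8, 134 and 18.7 CPM. A single CIA member held 63.3% of its CIA UMIs, and it was seen in 11.6% of CIA members against 9.50% of Cont members. Without the member highest in it in each library the log2 ratio of Isg15 was 2.30 in place of 3.39. The list's median of 1.06 was 0.88 in members of 5000 to 12000 UMIs, 0.86 within group 1, 0.74 within group 2 and 0.44 within group 3, where 3 of 10 measured genes were called higher. That window narrows the depth gap without closing it, the median member in it having 9555 UMIs in Cont, 7859 in CIA and 7714 in CIA+VFX. Macrophage and dendritic cell markers were at 78.2 CPM in CIA against 123 in Cont, and Cd74 and H2-Aa, their MHC class II genes, were 1.96-fold and 1.85-fold lower in CIA. Neutrophil markers were at 2.21 CPM in Cont and 9.24 in CIA. The part of immune RNA in the result was not tested. Higher values were not limited to the members. The median was 0.77 in the other Krt5/Krt14 barcodes and 0.12 in the Krt15-high barcodes, whose B2m level was already 761 CPM in Cont and reached 923 CPM in CIA.

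Glycolysis genes, which turn glucose into pyruvate and lactate, were higher along most of the pathway. Of 20 measured, 12 were called higher in CIA and 1 lower (Pfkfb4, 5.71 and 1.93 CPM), with a median log2 ratio of 0.78. The glucose transporter Slc2a1 was at 46.6, 87.4 and 51.7 CPM. Gapdh was at 361, 683 and 471 CPM (1.89-fold higher in CIA), Aldoa at 136, 236 and 183 CPM, and Pkm at 113, 192 and 153 CPM. Ldha, lactate dehydrogenase, was at 116, 231 and 168 CPM. The step committed by phosphofructokinase was mixed: Pfkl was at 7.34, 17.3 and 13.6 CPM, while Pfkp, the more counted subunit, was at 273, 241 and 209 CPM. The median was 0.79 in members of 5000 to 12000 UMIs, 0.43 in group 3, 0.55 in the other Krt5/Krt14 barcodes and 0.51 in the Krt15-high barcodes.

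Sterol and fatty acid synthesis genes, most of them targets of the SREBP transcription factors, included 16 of 28 called higher in CIA and none lower, with a median log2 ratio of 0.70 and a lowest value of -0.02. Cyp51, lanosterol demethylase, was at 16.7, 53.9 and 55.7 CPM, 3.23-fold higher in CIA (2.54 to 4.11). It was also among the 12 genes with the highest ratios. Fdps was at 14.7, 45.4 and 39.2 CPM, Idi1 at 15.4, 42.4 and 44.0 CPM, Fdft1 at 31.7, 64.3 and 61.3 CPM, and the regulator Srebf2 at 58.3, 99.0 and 85.3 CPM. Msmo1, by UMIs the most counted of the list, was even (184, 184 and 204 CPM). The list's median was 0.72 in members of 5000 to 12000 UMIs, 0.48 in group 1, 0.87 in group 2, 0.31 in group 3, 0.51 in the other Krt5/Krt14 barcodes and 0.26 in the Krt15-high barcodes.

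**Figure D4:**
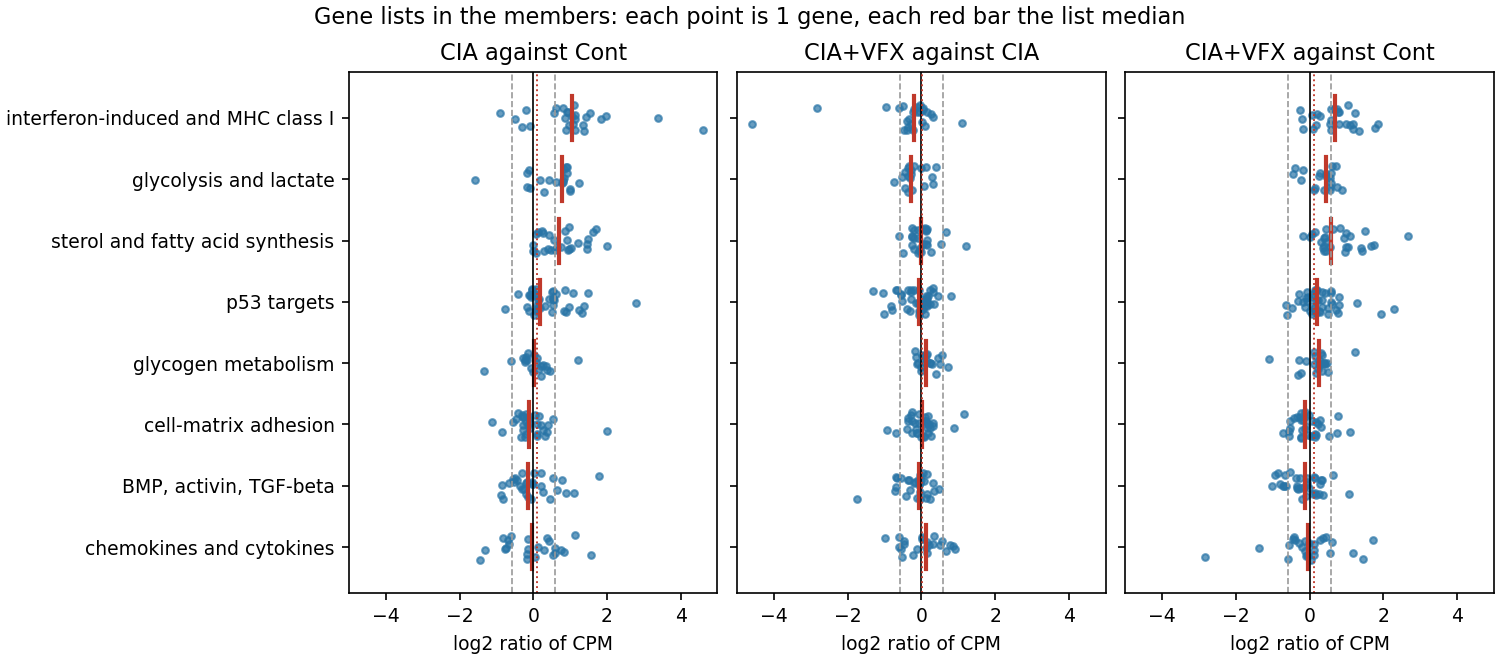
Log2 ratio of CPM (x axis) for the measured genes of 8 lists in the members, 1 panel for each comparison. Each point is 1 gene, the red bars are list medians, the dotted red line is the median of all measured genes and the dashed grey lines mark 1.5-fold. In CIA against Cont the first 3 lists have medians of 1.06, 0.78 and 0.70, and the other 5 lie between -0.13 and 0.18.

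Single genes with high ratios came from several functions. The 12 highest ratios of CIA to Cont, by a rule on level and ratio, included those of Isg15, Grip1, Klf2, Myl9, Ptn, Cyp51, Fabp5, Scel, Cxcl10 and Pxdc1. Grip1, a scaffold protein of glutamate receptors, was at 47.8, 218 and 165 CPM, 4.57-fold higher in CIA (4.02 to 5.20), and was seen in 32.2%, 60.2% and 48.8% of members. Fabp5, an epidermal fatty acid binding protein, was at 429, 1324 and 1419 CPM, 3.08-fold higher (2.94 to 3.23), though its log2 ratio of 1.62 was 0.93 in members of 5000 to 12000 UMIs. The higher Fabp5 was not limited to the members. Its level was 1073, 1775 and 2500 CPM over all kept barcodes, 331, 844 and 724 in Krt15-high barcodes and 227, 389 and 440 in immune barcodes. The growth factor Ptn was at 43.4, 142 and 77.2 CPM. Klf2, a transcription factor that dissociation can induce, was at 22.6, 88.6 and 36.2 CPM, and Myl9, a contractile light chain that stood with Tagln and Acta2, at 17.0, 62.4 and 40.4 CPM. Scel was higher over all members (18.4, 54.7 and 49.8 CPM) but had a log2 ratio of -0.39 within group 2.

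Cxcl10, an interferon-induced chemokine, was at 18.2, 53.5 and 59.6 CPM, but 30.9% of its CIA UMIs were in 1 member. Its log2 ratio of 1.56 reversed to -0.50 when the members were chosen after thinning to 4000 UMIs.

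The 12 lowest ratios of CIA to Cont included those of Slc4a4, Ivl, Plagl1, Ccl27a, Papss2, Sdc2, Postn, Gabre, Cpe, Xkr4 and Phldb2. Slc4a4, a sodium bicarbonate cotransporter, was at 136, 44.7 and 62.1 CPM, 3.04-fold lower in CIA (2.51 to 3.72). It was seen in 54.3%, 19.5% and 26.3% of members, and in 24.5%, 7.95% and 11.3% after thinning to 3000 UMIs, so the gap was also there at equal depth. Plagl1, an imprinted zinc finger transcription factor, was at 375, 132 and 122 CPM (2.83-fold lower, 2.53 to 3.17). Its thinned shares were 42.5%, 20.1% and 21.4%. Gabre, which belongs to the 20 genes that set the members apart, was at 133, 53.5 and 65.1 CPM, and Cpe, carboxypeptidase E, at 595, 241 and 286 CPM. Sdc2, a membrane proteoglycan, was at 138, 53.9 and 77.5 CPM. Lower levels in CIA were mostly not limited to the members. In Krt15-high barcodes Slc4a4 was at 16.4, 5.93 and 7.47 CPM, Plagl1 at 98.1, 62.5 and 37.7, Gabre at 27.9, 12.3 and 9.34, and Cpe at 265, 186 and 143. Sdc2 was higher in CIA there (24.9, 52.5 and 25.4 CPM). Over all kept barcodes Slc4a4 was not lower in CIA (66.8, 69.9 and 48.2 CPM).

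The ratios of these genes kept their direction within groups 1 and 2, except Ivl. Slc4a4 had log2 ratios of -3.17 and -1.96 in groups 1 and 2 against -1.61 over all members, and Plagl1 -1.33 and -1.24 against -1.50. Ivl, a cornified envelope protein that leads group 1 with others, had -2.15 in group 1 and 0.86 in group 2. In members of 5000 to 12000 UMIs, Ivl had a log2 ratio of -0.16, Cpe of -0.40 and Phldb2 of -0.46, in place of -1.54, -1.30 and -1.25 over all members. For these 3 genes the ratio was smaller in that window. Postn, a matrix protein and bulge marker, had -0.84 there against -1.32.

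**Figure D5:**
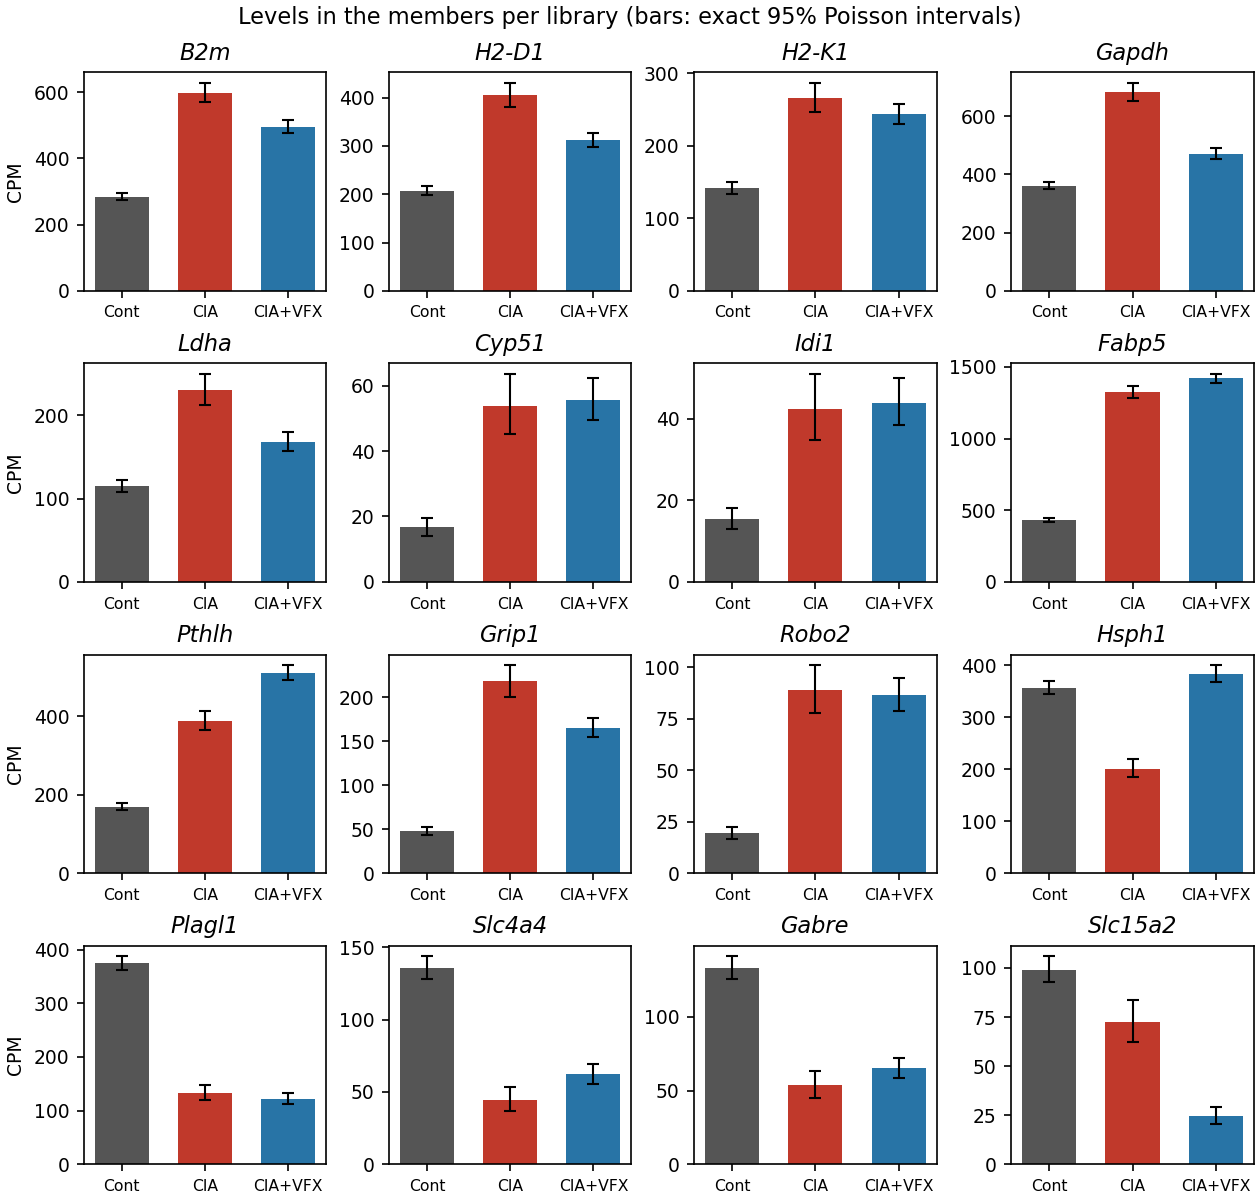
CPM (y axis, from 0) of 16 genes in the members of Cont (grey), CIA (red) and CIA+VFX (blue), with exact 95% Poisson intervals as black bars. B2m, H2-D1, Gapdh and Ldha are highest in CIA, Cyp51, Idi1 and Fabp5 are close in CIA and CIA+VFX and low in Cont, and Plagl1, Slc4a4 and Gabre are highest in Cont.

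Wnt signalling maintains the follicle's growth phase. Of 28 measured genes of the list, 3 were called higher in CIA and 2 lower, with a median log2 ratio of 0.08, close to that of all genes. The receptors Fzd6 (99.3, 51.2 and 87.2 CPM) and Fzd4 (18.9, 10.4 and 16.8 CPM) were lower in CIA than in both other libraries. The co-receptor Lrp5 was at 14.9, 25.4 and 23.2 CPM, and Lgr5 at 196, 156 and 209 CPM. The transcription factors Tcf7l1 (139, 156 and 137 CPM) and Tcf7l2 (302, 311 and 350 CPM) were not called in any comparison.

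BMP signalling restrains stem cell activation in the follicle. Genes of BMP, activin and TGF-beta signalling had 5 of 31 called higher and 4 lower, with a median of -0.13. The ligand Bmp6 was at 326, 184 and 180 CPM, 1.77-fold lower in CIA, while Inhba, a subunit of activin A, was at 16.1, 34.7 and 10.4 CPM. The BMP target Id2 was at 1088, 588 and 686 CPM, and the inhibitory Smad7 at 109, 60.1 and 66.6 CPM. Id1 (558, 377 and 335 CPM) and Id3 (624, 502 and 309 CPM), 2 other BMP targets, were also lower in CIA but were not called in CIA against Cont. Both were lowest in CIA+VFX. For CIA+VFX against Cont, 8 of 34 genes of the list were called lower and 2 higher (median -0.12). For CIA+VFX against CIA, 5 of 29 were called lower and 0 higher (median -0.07). Over all measured genes of these comparisons, 3.26% and 3.38% were called lower. The antagonist Fst was at 274, 249 and 157 CPM. Of the hedgehog list, 3 of 12 genes were called higher and 2 lower: the receptor and target Ptch1 (26.8, 48.9 and 40.7 CPM) and the target Gli1 (8.28, 16.2 and 10.6 CPM) were among those higher in CIA, and Gli3, mainly a repressor of the pathway (229, 146 and 204 CPM), and Scube2 (17.8, 6.55 and 12.1 CPM) lower.

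Growth factor genes were called higher in 11 of 32 cases and lower in 2, with a median of 0.21. Pthlh, parathyroid hormone-like peptide, was at 169, 388 and 511 CPM. Igfbp7 was at 162, 303 and 203 CPM and Igfbp4, another binding protein of the IGFs, at 357, 212 and 246 CPM. The EGF receptor ligand Areg was at 25.5, 78.2 and 40.6 CPM, with 50.2% of its CIA UMIs in 1 member, and Kitl, the stem cell factor, at 56.4, 90.9 and 60.2 CPM. Egfr itself was close in all 3 libraries (659, 619 and 617 CPM). Nrg1, a ligand of the ERBB receptors, was at 6163, 4571 and 4440 CPM, lower by 0.43 and 0.47 on the log2 scale in CIA and CIA+VFX than in Cont and not called.

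Chemokines and cytokines differed both ways: 6 of 24 were called higher in CIA and 8 lower, with a median of -0.05. Cxcl14 was close in Cont and CIA (6136 and 6332 CPM) and was 1.51-fold lower in CIA+VFX than in CIA (4184 CPM). Ccl27a, a skin chemokine that attracts T cells, was at 61.7, 22.7 and 41.1 CPM, and Il6 at 29.8, 11.9 and 22.6 CPM. In Krt15-high barcodes Ccl27a was also lower in CIA (551, 124 and 272 CPM). Ccl2, a monocyte chemokine, was at 46.5, 77.8 and 56.4 CPM. The wound-associated keratin Krt6a was at 58.0, 155 and 119 CPM, while Krt16, which is often raised with it, was at 66.9, 76.6 and 70.6 CPM. The protease inhibitor Slpi was at 167, 308 and 272 CPM and Sprr1a, a cornified envelope precursor, at 432, 264 and 244 CPM.

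The pathways of the marker genes differed to unequal extents. In the glycogen list, 1 of 21 genes was called higher in CIA, the glycogen synthase Gys1 (17.0, 39.3 and 40.0 CPM), and 2 lower, the glycogen-targeting phosphatase subunit Ppp1r3c (11.8, 4.62 and 5.47 CPM) and the primer protein Gyg (8.16, 5.39 and 8.87 CPM). The median was 0.01. Around Gnmt, the S-adenosylmethionine synthetase Mat2a was at 509, 317 and 521 CPM, and 6 of 19 measured genes of the methionine and one-carbon list were called higher and 1 lower, with a median of 0.30. Those higher included Psph, Mthfd1, Tyms and Mthfd2 (5.71, 13.1 and 8.11 CPM).

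The genes that tie basal keratinocytes to their matrix were also close to even, with 1 of 32 called higher, 2 lower and a median of -0.13. Itga6 was at 1182, 883 and 806 CPM and Col17a1 at 513, 450 and 472 CPM, neither called; the laminin chain Lama3 was at 449, 249 and 270 CPM. Follicle transcription factors were called higher in 5 of 41 cases and lower in 5, with a median of 0.08. Hoxc13, a regulator of hair keratins, was at 79.5, 38.5 and 47.0 CPM, Runx1 at 817, 570 and 610 CPM, and Irx5 at 125, 199 and 172 CPM. Retinoid genes included Dhrs9 (742, 384 and 546 CPM) and Rarb (14.9, 7.32 and 14.1 CPM), both lower in CIA, and Lrat (20.6, 39.3 and 44.9 CPM), which esterifies retinol and was higher.

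Targets of p53, the response to DNA damage, were called higher in 11 of 41 cases and lower in 1, with a median of 0.18 against 0.09 for all genes. The main targets Cdkn1a (452, 474 and 360 CPM) and Mdm2 (116, 127 and 110 CPM) were not called. Phlda3, an inhibitor of Akt, was at 30.1, 75.8 and 36.6 CPM. Trp53inp1 was at 679, 400 and 432 CPM, the 1 gene called lower. Among cyclins, Ccnd1 was at 67.7, 181 and 138 CPM and Ccnd2 at 130, 226 and 189 CPM. The medians of the S phase and G2/M lists were 0.45 and 0.34 over all members, but -0.01 and 0.15 in members of 5000 to 12000 UMIs, and -0.04 and 0.12 within group 1. They were 0.65 and 0.81 in members chosen after thinning to 4000 UMIs, so the depth alternatives went opposite ways. Mki67 and Top2a are bounded by the rule, and the cycle lists are not read further.

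Mitochondrially encoded genes were lower in the CIA members, with 1 of 13 called (mt-Nd3) and a median log2 ratio of -0.39, and went the other way in CIA+VFX against CIA (0.40). This was not limited to the members. The median share of mitochondrial UMIs was 2.11%, 1.38% and 2.25% over all kept barcodes of Cont, CIA and CIA+VFX. It was 2.48%, 1.90% and 2.47% in Krt15-high barcodes and 1.44%, 1.03% and 1.45% in immune barcodes. The 85 ribosomal protein genes had a median of 0.03, with Rps27 the 1 called, lower in CIA (1171, 760 and 985 CPM). Heat shock genes Hspa1b (687, 383 and 682 CPM) and Hsph1 (357, 201 and 383 CPM) were lower in CIA than in both other libraries. CIA had a larger share of group 2, which those genes lead, than Cont did. Within group 2, however, Hsph1 was at 1404, 421 and 791 CPM and Hspa1b at 2195, 787 and 1395 CPM. At resolution 1 the group led by Hsph1 was smallest in CIA (10.54%, 4.15% and 12.04% of the members). Another group there, led by Nts and Ccl21a, was largest in CIA (10.54%, 25.73% and 19.59%).

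Between CIA+VFX and CIA, fewer genes differed. Of 9456 measured genes, 572 (6.05%) were called higher in CIA+VFX and 320 (3.38%) lower, with a median gene at 0.01. The 3 lists that stood higher in CIA split. Glycolysis genes were lower in CIA+VFX by the median (-0.29), with 1 of 19 called, Slc2a1, 1.69-fold lower. Interferon-induced and MHC class I genes had a median of -0.21, with 4 of 26 called lower and 1 higher: H2-T23 (24.7, 54.7 and 28.1 CPM) and Ifi27l2a were lower, and so were Isg15 and Ifit1, whose level in CIA rested on few members. Without groups 3 and 5 the median was -0.47, with 7 of 20 called lower and 0 higher, and in members of 5000 to 12000 UMIs it was -0.46, with 6 of 19 lower and 0 higher. Within group 3 the median was 0.11, with 3 of 16 called higher and 2 lower. With 5% free RNA subtracted it was -0.11. Lower medians were not limited to the members. The median was -0.42 in the other Krt5/Krt14 barcodes, -0.36 over all kept barcodes and -0.24 in immune barcodes, against 0.00 in Krt15-high barcodes. Sterol and fatty acid genes were even (median -0.02), with 2 of 28 called higher, the desaturases Scd1 (3.50, 9.63 and 22.4 CPM) and Scd2, and 1 called lower. The comparisons with CIA share its library, so a high or low value in the CIA library enters both with opposite sign.

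The 8 highest ratios of CIA+VFX to CIA were those of Pinlyp, Sema6a, Cpm, Hsph1, Dach1, Clip4, Enox2 and Chordc1. Dach1, a transcription cofactor, was at 850, 408 and 772 CPM, 1.89-fold higher in CIA+VFX (1.77 to 2.03), and was seen in 98.3%, 84.2% and 94.5% of members. It was also lowest in CIA over all kept barcodes (243, 133 and 246 CPM) and in Krt15-high barcodes (216, 180 and 228 CPM). Hsph1 was 1.91-fold higher and Chordc1, a cochaperone of HSP90, 1.84-fold higher (49.8, 33.5 and 61.7 CPM). The first 3 genes depended on single members, on 2 groups or on the marker limit. Pinlyp was at 3.03, 13.5 and 148 CPM with 92.2% of its CIA+VFX UMIs in 1 member, and its log2 ratio went from 3.46 to 0.09 without the top member of each library and to -1.09 in members of 5000 to 12000 UMIs. Sema6a, a gene that leads group 3, went from 1.36 to -0.36 without groups 3 and 5, and Cpm from 1.32 to -0.70 when a marker sum of 1 was enough for membership.

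The 8 lowest were Isg15, Slc15a2, Klf2, Pxdc1, Phlda3, Ing2, Lgals3 and Ptn. Slc15a2, a peptide transporter, was at 99.2, 72.4 and 24.3 CPM, 2.97-fold lower in CIA+VFX than in CIA (2.36 to 3.75), and its log2 ratio was -1.42 in group 1 and -2.55 in group 2. It was lower in Krt15-high barcodes too (log2 ratio -1.75) and over all kept barcodes (-2.22), so the difference is not limited to the members. Lgals3, the lectin galectin-3, was at 540, 639 and 336 CPM (1.90-fold lower, 1.78 to 2.03). Klf2, Pxdc1, Phlda3 and Ptn were each among the genes or list members called higher in CIA against Cont, and their CIA+VFX levels lay between those of Cont and CIA.

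Against Cont, the CIA+VFX members had 1209 of 10550 measured genes called higher (11.5%) and 344 lower (3.26%), with a median gene at 0.11. With TMM factors the calls were 703 higher and 605 lower, so that 53.7% of the called genes were higher in place of 77.8%, the median gene having moved by -0.15. Sterol and fatty acid genes were higher than in Cont in 14 of 28 cases with a median of 0.59, interferon-induced and MHC class I genes in 16 of 26 with a median of 0.69, and glycolysis genes in 4 of 21 with a median of 0.44. The median of the interferon and MHC class I list was lower under several alternatives, at 0.31 with 6 of 19 called higher in members of 5000 to 12000 UMIs and at 0.40 with 9 of 24 without groups 3 and 5, and at 0.49 with 8 of 21 in members chosen after thinning to 4000 UMIs. Cyp51, Fabp5 and Plagl1 were 3.34-fold, 3.31-fold and 3.07-fold from Cont in CIA+VFX, against 3.23-fold, 3.08-fold and 2.83-fold in CIA. Grip1 was 3.46-fold above Cont in CIA+VFX (3.07 to 3.90) against 4.57-fold in CIA, and Gapdh, Ldha and Slc2a1 lay nearer to Cont in CIA+VFX.

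The 8 highest ratios of CIA+VFX to Cont were those of Pinlyp, Robo2, Grip1, Cyp51, Fabp5, Pthlh, Mbd1 and Trps1. Robo2, a receptor for Slit guidance proteins, was at 19.3, 88.9 and 86.4 CPM, 4.47-fold higher (3.73 to 5.37), and was seen in 13.0%, 32.0% and 28.2% of members. Trps1, a transcriptional repressor of follicle development, was at 129, 283 and 285 CPM. Both genes were higher over all kept barcodes than in the members of each library. There Robo2 was at 95.7, 183 and 127 CPM and Trps1 at 417, 450 and 416 CPM. Pthlh was 3.03-fold higher (2.84 to 3.23), with a log2 ratio of 1.60 over all members and 0.76 without groups 3 and 5. The 8 lowest were Slc15a2, Shroom4, Plagl1, Ivl, Il1r2, Lbh, Slc4a4 and Phldb2. Lbh, a transcription cofactor, was at 449, 227 and 194 CPM, and Il1r2, a decoy receptor for interleukin 1, at 50.2, 28.5 and 19.2 CPM. Hbegf, an EGF receptor ligand, was not called in CIA and was 1.71-fold lower in CIA+VFX than in Cont (1938, 1579 and 1133 CPM).

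Few genes of monoamine transport, breakdown and response were measured in the members. Venlafaxine acts on the transport step, the reuptake of serotonin and noradrenaline. Of 32 listed genes, 5 were measured in CIA against Cont, with 2 called higher and 0 lower. Over all measured genes 12.7% were called higher and 6.35% lower. The summed level of the list was 99.0, 174 and 134 CPM. Slc6a2, the noradrenaline transporter, was at 6.29, 6.93 and 10.2 CPM on 54, 18 and 54 UMIs, and Slc6a4, the serotonin transporter, at 2.68, 6.16 and 2.64 CPM on 23, 16 and 14 UMIs.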

How the data were processed

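The authors deposited raw UMI counts per gene and barcode, as 1 sparse matrix per library. Per the file headers the software was Cell Ranger 8.0.1; the libraries were Chromium GEM-X 3' v4 per the labels' protocols, and the submitters' processing notes name GRCm39 and FastQC 0.11.7. No coordinates were used. Where 2 genes had 1 symbol, the one with the lower identifier kept it.

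The members, gene lists and comparisons were chosen with earlier results of these data known. Doublets were not removed beyond the limits of the rule (a caller based on simulated doublets marked 25, 23 and 51 members). With 1 library per group there was no test. UMIs were summed over members per library and scaled to CPM. Ratios had exact conditional binomial intervals, levels exact Poisson and shares exact Clopper-Pearson intervals (95%), for counting error only. The ratio and interval code was tested on simulated counts.

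Named genes had at least 100 UMIs in the compared libraries, at least 50 CPM in the higher library and there at least 0.5 times the CPM over all kept barcodes. Mitochondrial, ribosomal, haemoglobin, Gm- and Rik-named genes and genes of the rule were left out. The 12 highest and 12 lowest ratios of CIA to Cont, and 8 and 8 of the other comparisons, were chosen; some chosen genes are not reported here. Per list, called genes with the most UMIs and genes needed to follow a pathway were named, the latter after their values were seen. Groups came from the Leiden method on 20 principal components of 1000 variable genes with 15 neighbours. Alternatives covered the filters, the rule's limits, depth, doublets, shared barcodes, free RNA, the UMI minimum and scaling (TMM by edgeR 4.0.16 in R 4.3.3, or median of ratios). Python 3.11.15 was used.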

Additional observations from a re-analysis of the deposited data

How the results depend on the processing

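No paired analysis was possible because each group had 1 library. The share of members in CIA relative to Cont, 0.380 under the rule, was 0.297 with a marker sum of at least 4, 0.853 after thinning to 4000 UMIs, 0.460 among Krt5/Krt14 barcodes and 0.646 without the Krt15 limit, the last chosen after seeing the data. For CIA+VFX relative to CIA, 2.03 became 1.30 among Krt5/Krt14 barcodes and 1.49 without the Krt15 limit. For CIA+VFX relative to Cont, 0.769 became 0.623 with the higher marker sum, 0.598 among Krt5/Krt14 barcodes, 0.964 without the Krt15 limit, and reversed to 1.48 after thinning; the cause was not tested. Called genes of CIA against Cont (1262 higher, 631 lower) were 763 and 1042 with TMM, 765 and 1030 with median-of-ratios factors, 2462 and 1565 with at least 10 UMIs, 466 and 276 with at least 200, and 626 higher in members of 5000 to 12000 UMIs, where fewer genes were measured. For CIA+VFX against CIA (572, 320) they were 1686 and 1019 with at least 10 UMIs and 116 and 70 with at least 200. For CIA+VFX against Cont (1209, 344) they were 703 and 605 with TMM, 704 and 603 with median-of-ratios factors, 2620 and 991 with at least 10 UMIs, 396 and 187 with at least 200, and 489 higher in the depth window. Resolution 1 gave 8 groups in place of 5. Reversed log2 ratios of named genes were those of Cxcl10 (-0.50, thinned rule), Cpm (-0.70, marker sum of at least 1), Pinlyp (-1.09, depth window) and Sema6a (-0.36, without groups 3 and 5); the cause was not tested. Of the other values of named genes under alternatives, 667 stayed within and 169 left the counting interval without reversing; for list medians, 1203 stayed and 57 moved. The depth window, the omission of groups 3 and 5 and of top members were chosen after seeing the data. Depth limits CIA most, with 241 members and 2597260 UMIs.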

Other observations

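The secreted protease Adamts1 was at 168, 395 and 320 CPM in Cont, CIA and CIA+VFX, and its relative Adamts5, a gene that leads group 3, at 11.1, 18.9 and 44.7 CPM. Serpine2, a secreted inhibitor of serine proteases, was at 6.29, 41.2 and 14.0 CPM. Over the list of matrix proteases and their inhibitors, 5 of 20 genes were called higher and 2 lower in CIA against Cont, with a median log2 ratio of 0.02. For this count and those below, the shares over all measured genes were 12.7% higher and 6.35% lower. Notch3 was at 9.79, 27.3 and 25.7 CPM, the 1 gene called of 14 measured in the Notch list for CIA against Cont. Among junction genes, 4 of 25 were called higher in CIA against Cont, with Cldn1, a tight junction protein, at 151, 243 and 228 CPM and Dsg3, a desmosomal cadherin, at 103, 160 and 175 CPM; Gjb6, a connexin, was the 1 called lower (60.8, 37.7 and 65.3 CPM).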
